A study of Mus musculus with 5 samples.

Results

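The regions described here are all those on mouse chromosome 11 at which macroH2A1.2-GFP was enriched in 3T3-L1 cells, chosen only by the chromosome named in each region's row. They numbered 13121 of 195585 over 4 samples. The pre-adipocyte samples had 2484 of 36468 regions (replicate 1) and 2262 of 38546 (replicate 2). The mature adipocyte samples had 4150 of 59375 (replicate 1) and 4225 of 61196 (replicate 2). Values given in sets of 4 run in this order throughout. Chromosome 11 was picked out because it is gene-rich and densely covered, so both properties are given as a description and without a test.

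3T3-L1 is an established line of mouse fibroblasts that can be turned into fat cells. The 3T3-L1 cells of both conditions carried a lentivirus driving stable expression of macroH2A1.2 fused to GFP, and chromatin was precipitated with an antibody against GFP (ChIP-Seq), so the tagged, added protein was mapped and not the cells' own histone. Pre-adipocytes (2 samples) were taken before differentiation, and mature adipocytes (2 samples) after induction with IBMX, dexamethasone and insulin for 60 h and further culture with insulin, the labels giving no final day. The control was precipitated without antibody and has no region table of its own. Conditions follow the sample titles, since the description fields of both mature samples name the state before differentiation, and the control's own description names GFP cells and the anti-GFP antibody. The study's paragraph on chromatin immunoprecipitation speaks of mouse adipose tissue. No expression was measured in these files, so the cell state could not be checked against marker genes. The samples are bulk chromatin, in which more cells with macroH2A1.2 at a place and more macroH2A1.2 per cell cannot be told apart. The study calls the samples of each condition biological replicates. The labels do not say whether they came from separate cultures, and if they did not, the p-values measure only the spread between these samples.

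MacroH2A1.2 is a splice form of a histone H2A variant with a large globular domain joined to the histone fold. It forms broad domains, is abundant on the inactive X chromosome and on silent genes, and is also found at some genes that can be switched on. Mouse chromosome 11 carries the Hoxb genes, the type I keratins, clusters of chemokine and myosin genes, and several genes of fat metabolism such as Fasn, which encodes fatty acid synthase.

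The 250 bases before a gene start are shown for 4 genes that lie at the ends of what was measured. Krtap3-1 and Krtap1-5 encode keratin-associated proteins of hair, and their promoters lay wholly inside a region in all 4 samples. Fasn and Ebf1, a transcription factor of B cells and of fat cell formation, had promoters inside no region of any sample. The sequences are from RefSeq (GRCm38.p6, the assembly that mm10 represents), read along the gene's own strand, and capitals mark each CG.
Krtap3-1, chr11:99566631-99566880, minus strand: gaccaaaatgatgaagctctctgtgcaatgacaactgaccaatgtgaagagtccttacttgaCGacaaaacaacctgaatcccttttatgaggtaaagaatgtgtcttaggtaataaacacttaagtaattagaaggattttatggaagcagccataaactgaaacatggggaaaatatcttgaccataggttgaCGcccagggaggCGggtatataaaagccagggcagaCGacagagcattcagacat
Krtap1-5, chr11:99581017-99581266, minus strand: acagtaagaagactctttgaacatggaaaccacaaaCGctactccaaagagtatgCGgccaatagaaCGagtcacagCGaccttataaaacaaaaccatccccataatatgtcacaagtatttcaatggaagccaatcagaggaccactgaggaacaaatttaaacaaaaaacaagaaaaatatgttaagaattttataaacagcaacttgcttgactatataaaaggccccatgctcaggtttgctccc
Ebf1, chr11:44617850-44618099, plus strand: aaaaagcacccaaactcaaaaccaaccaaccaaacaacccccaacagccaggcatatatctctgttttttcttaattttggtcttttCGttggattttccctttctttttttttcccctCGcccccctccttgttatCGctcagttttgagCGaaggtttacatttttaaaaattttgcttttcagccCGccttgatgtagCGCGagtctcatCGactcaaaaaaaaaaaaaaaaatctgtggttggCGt
Fasn, chr11:120824548-120824797, minus strand: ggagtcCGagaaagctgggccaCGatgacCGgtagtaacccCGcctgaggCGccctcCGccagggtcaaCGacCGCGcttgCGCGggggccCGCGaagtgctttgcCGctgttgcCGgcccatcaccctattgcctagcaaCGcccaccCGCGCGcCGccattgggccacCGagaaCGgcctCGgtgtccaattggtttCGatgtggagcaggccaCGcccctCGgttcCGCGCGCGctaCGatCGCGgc
Both keratin-associated promoters held 4 CG pairs and the letters TATAAA, nearest at 37 bases before the start in Krtap3-1 and 31 bases before it in Krtap1-5. The Ebf1 stretch held 9 CG pairs, the Fasn stretch 33, and neither held TATAAA on the strand shown.

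The mature sequences of 3 microRNAs are shown because their hairpins on chromosome 11 lay whole inside regions of both mature samples and of neither pre-adipocyte sample. Replicate 2 of pre-adipocytes had a region that held the mature miR-216b-5p but not its whole hairpin. They are from RefSeq, with the seed (bases 2 to 8) in capitals.
miR-216b-5p, chr11:28746204-28746225, plus strand: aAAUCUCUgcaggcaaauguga
miR-216a-5p, chr11:28757018-28757039, plus strand: uAAUCUCAgcuggcaacuguga
miR-217-5p, chr11:28763761-28763783, plus strand: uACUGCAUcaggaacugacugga
The seeds of miR-216a-5p and miR-216b-5p were equal in 6 of 7 bases, and that of miR-217-5p belonged to another seed group.

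Regions covered 14.1% and 6.27% of the annotated span of chromosome 11 before differentiation, and 15.1% and 14.3% after it. One pre-adipocyte sample was thus far below the other 3. That sample was also the shallowest, with a library size of 0.549 relative to the control library against 1.2, 1.23 and 1.21 in the others, and its share in this difference was not tested. The pre-adipocyte mean was 10.2% ± 5.56 (SD, n = 2) and the mature mean 14.7% ± 0.520 (SD, n = 2). The difference of 4.49 percentage points was within the spread of the pre-adipocyte samples (exact permutation test, two-sided p = 0.333, the smallest that 2 against 2 allows). Without replicate 2 of pre-adipocytes the difference was 0.557 points, and without their replicate 1 it was 8.42. Divided by the covered share of the whole genome in the same sample, chromosome 11 was at 1.30, 1.16, 1.32 and 1.29, above 1 in every sample.

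Chromosome 11 had 13.8 coding genes per Mb, the second highest density of 20 chromosomes after chromosome 7 with 14.2. Its mean covered share of 12.4% was only the ninth highest. Chromosome 7, at nearly the same gene density, was covered to 1.19%, and chromosome 15, with 7.78 genes per Mb, to 23.3%.

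The regions of chromosome 11 were more enriched over the control than those of the genome. Their median fold enrichment, ChIP over control reads scaled by library size, was 1.78, 2.19, 1.99 and 2.01, against 1.61, 2.01, 1.79 and 1.82 over all regions. Counted over all reads in regions, chromosome 11 had rank 4 of 20 in fold enrichment in every sample. Fewer control reads lay in its regions, from 15.8 to 16.5 per kb against 18.5 to 19.3 per kb over the genome, and scaled ChIP reads per kb were also lower, at 27.9, 35.2, 30.6 and 31.1 against 29.4, 37.2, 32.1 and 32.6. The part of the control reads in the higher fold was not tested. The median region held 173, 53, 119 and 113 ChIP reads, and median lengths were 5400, 2800, 3400 and 3200 bp.

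**Figure D1:**
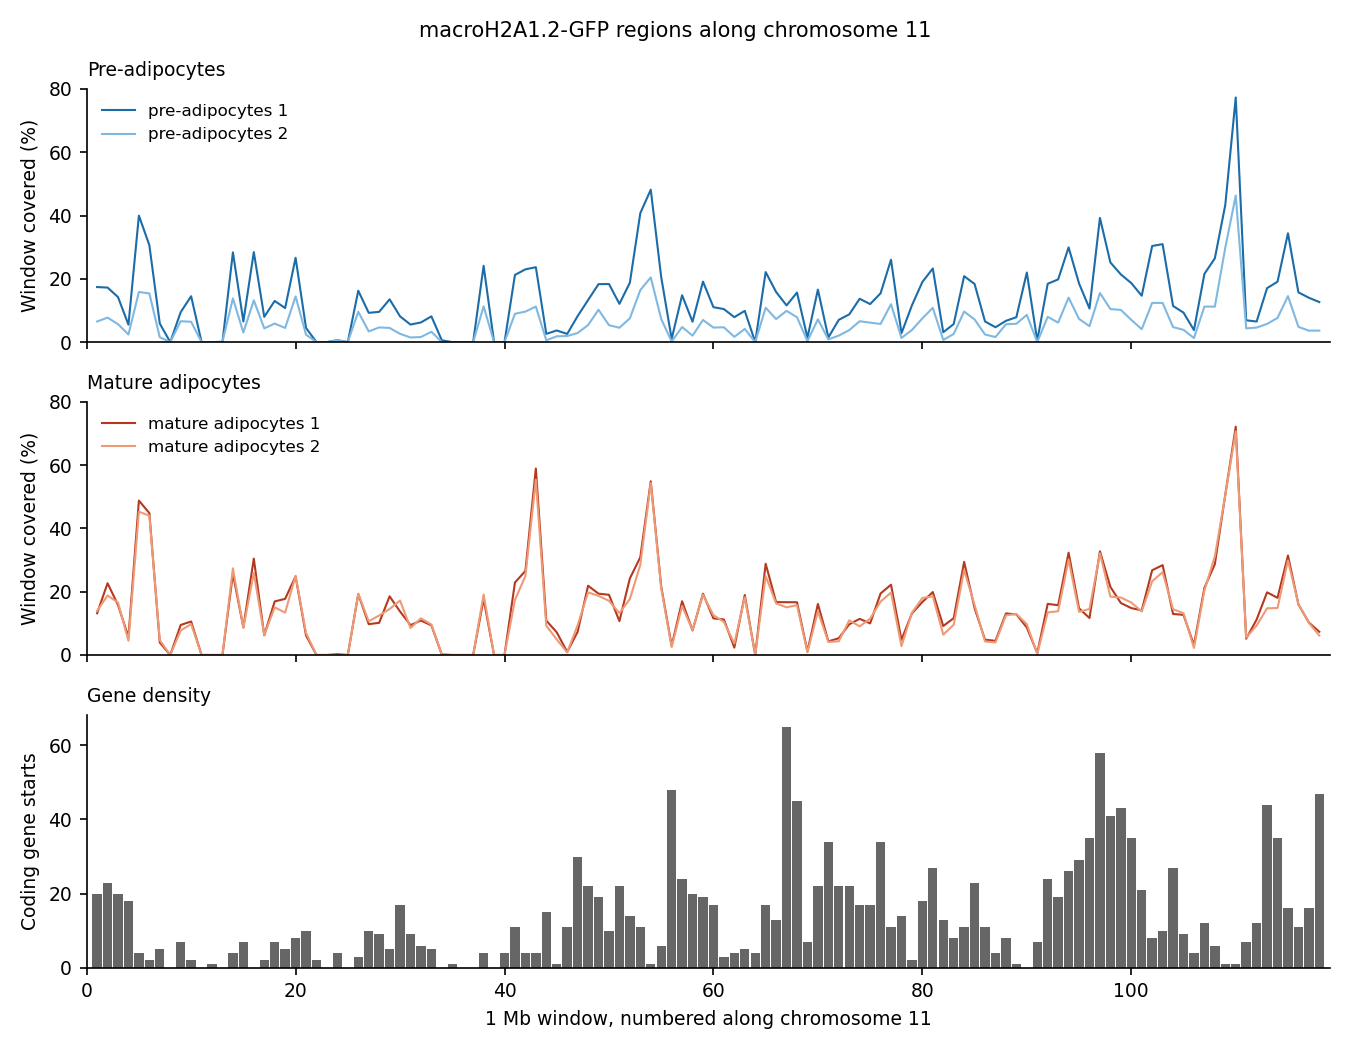
Covered share (%) of each of the 118 windows of 1 Mb along chromosome 11 in each sample (upper panels, 1 line per sample) and number of coding gene starts per window (lower panel). Most peaks and gaps fell at the same windows in all 4 samples, apart from the peak of mature adipocytes from 45 to 46 Mb, and the highest window reached 77.3% in replicate 1 of pre-adipocytes.

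Along the chromosome, dense stretches alternated with empty ones. Of 118 windows of 1 Mb, 11 held no region in any sample and 16 were covered to less than 1% in every sample, 13.6% against 28.4% of the 2561 windows of the genome. The median window was covered to 10.5%, the quartiles lay at 4.88% and 16.4%, and the maximum was 66.6% (means of 4 samples). The 2 mature samples had nearly the same profile over these windows (Pearson r = 0.991), and r between a pre-adipocyte and a mature sample was 0.898 to 0.920, as a description, since neighbouring windows and the control library are shared.

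Windows without a gene were mostly empty, and beyond these the covered share did not follow gene density closely. Windows without a coding gene start had a median covered share of 0 (11 windows, mean of 4 samples). The median was 10.1% with 1 to 5 starts (30 windows), 9.36% with 6 to 15 (34 windows), 13.0% with 16 to 30 (30 windows) and 14.3% with over 30 (13 windows). Over the 118 windows, covered share and coding starts had a Spearman correlation of 0.291 and a Pearson correlation of 0.0698. Over the 107 windows with a coding start, Spearman's value was 0.139 and Pearson's -0.0227. On the other chromosomes together the medians rose from 0.045% without starts to 6.59% with 16 to 30 starts and were 3.45% with over 30, while on chromosome 7 no class had a median over 0.56%.

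**Figure D2:**
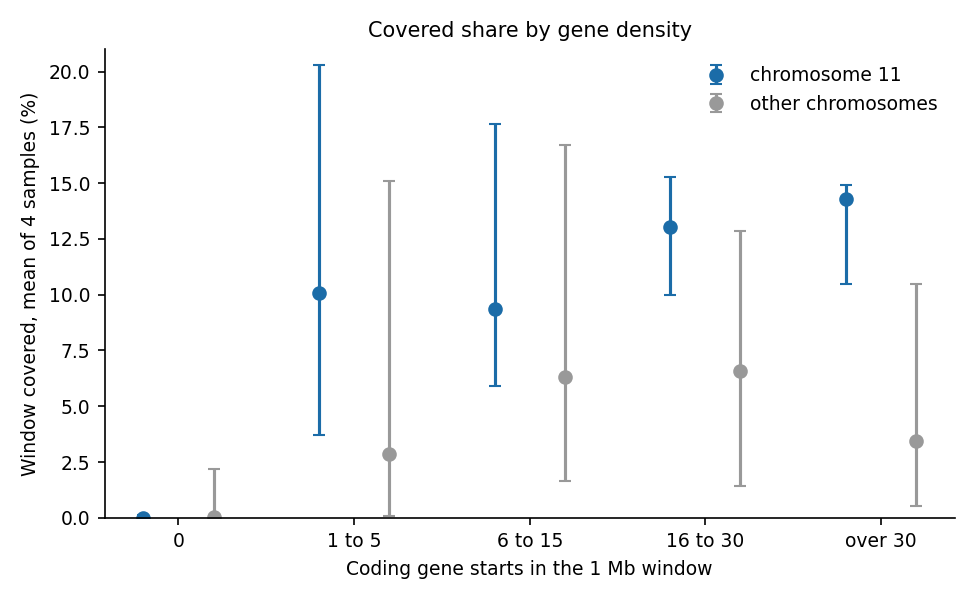
Covered share of 1 Mb windows (%, mean of the 4 samples) by number of coding gene starts, for chromosome 11 (blue) and the other chromosomes (grey); points are medians and bars run from the lower to the upper quartile. On chromosome 11 the median was 14.3% in windows with over 30 starts, against 3.45% on the other chromosomes.

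The covered bases themselves lay mostly outside genes. Coding gene bodies took up 48.3% of the span of chromosome 11 but 26.2%, 25%, 27.1% and 26.6% of the covered bases in the 4 samples. Stretches within 1 kb of a coding gene start took up 2.57% of the span and 1.40% to 1.96% of the covered bases. Over all chromosomes, gene bodies made up 40.3% of the span and 24.9% to 26.8% of the covered bases, so the share inside genes was close to that of chromosome 11.

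Gene-rich windows differed widely among themselves. The window from 99 to 100 Mb, with 58 coding starts, many of them keratin and keratin-associated genes, was covered to 39.3%, 15.5%, 32.8% and 32.1%. The window from 69 to 70 Mb had the most starts, 65, and was covered to 11.6%, 9.88%, 16.7% and 15.1%. The window from 58 to 59 Mb, with 48 starts including immunity-related GTPases and olfactory receptors, was covered to 1.02%, 0.18%, 2.90% and 2.52%. In mature adipocytes these 3 windows differed by more than the replicates of each.

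Several stretches were nearly empty in all 4 samples. No region of any sample lay between 41 and 43 Mb, a stretch that includes Gabra6 and Gabrb2, which encode subunits of the main inhibitory receptor of the brain. The 4 windows from 36 to 40 Mb, with Tenm2, a synaptic adhesion protein, as the single coding start, were covered to at most 0.56% in any sample. The 4 windows from 24 to 28 Mb, with Bcl11a, a transcriptional repressor of blood and brain development, Fancl and Vrk2, reached at most 0.60%. A shorter gap from 93 to 94 Mb held Car10, Utp18, Mbtd1, Nme1, Nme2 and Spag9 and also reached at most 0.60%. These gaps were common to both conditions, and whether reads could be mapped there as well as elsewhere was not tested.

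The densest part of chromosome 11 was the gene desert before Sox9. Sox9 encodes a transcription factor of cartilage, gonad and progenitor cells, and the stretch between it and Kcnj2, a potassium channel gene, holds no coding gene start over 1705 kb (chr11:111076822-112782223) and is known for distant Sox9 enhancers. Regions covered 61.5%, 39.4%, 64.4% and 62.7% of it. Fold enrichment there was 1.76, 2.01, 1.93 and 1.91, so it stood out by extent and not by height. The window from 112 to 113 Mb, with Sox9 as its only coding start, was covered to 77.3%, 46.3%, 72.2% and 70.7%, and had rank 10 among the 2561 windows of the genome by mean covered share.

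Coverage in the Sox9 desert was broad and fell at its edges. In the bins of 100 kb from -1300 to -100 kb relative to the Sox9 start, covered shares were 57.6% to 94.0% in replicate 1 of pre-adipocytes, 34.4% to 67.0% in replicate 2, and 66% to 92.8% in the mature samples. In the bin ending at the start they dropped to 46.0%, 11.2%, 42.2% and 34.6%, and the Sox9 gene body held no region in any sample. Beyond the gene, 100 to 200 kb after the start, they were 75.2%, 39.6%, 64.0% and 69.2%, and from 300 to 400 kb at most 2.00%. The gene was thus an uncovered gap within a covered domain in both conditions.

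**Figure D3:**
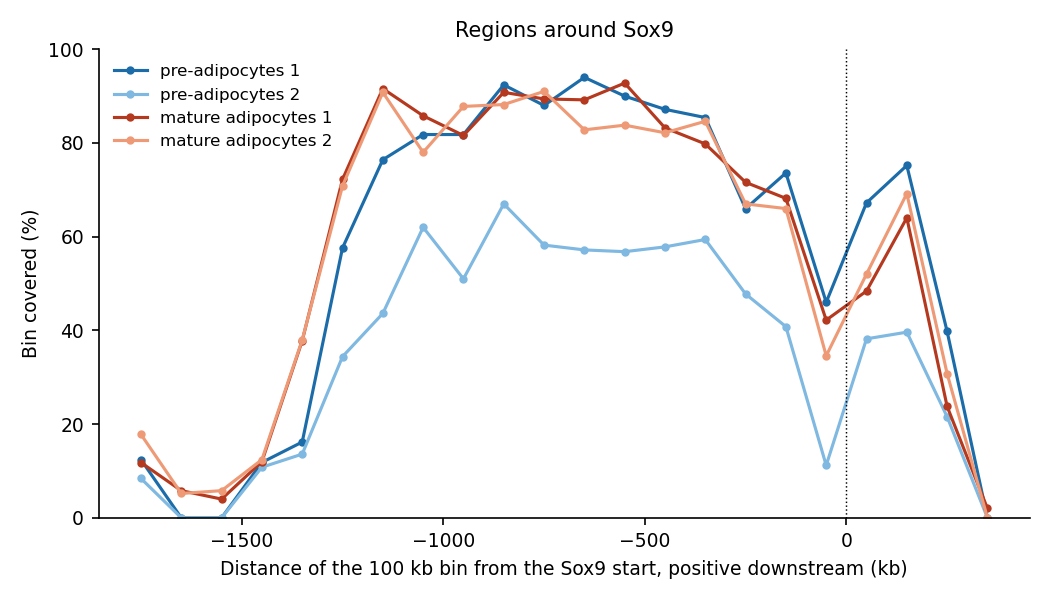
Covered share (%) of 100 kb bins by their distance from the Sox9 start (kb, negative upstream, dotted line at the start), 1 line per sample. Coverage was high over more than 1000 kb upstream in all 4 samples and fell in the bin that ends at the start, to between 11.2% and 46.0%.

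After merging over samples, the longest region of chromosome 11 also lay in this desert, at chr11:112017001-112201800 (184800 bp), 672824 bp from the Sox9 start. The next were chr11:55552201-55650000 over Glra1, a glycine receptor subunit, chr11:28876801-28964000 over Efemp1, a matrix protein, chr11:105502001-105585600 near Tanc2 and chr11:111600601-111684200 between Kcnj2 and Sox9. Each was called in all 4 samples, as 4 to 24 separate regions per sample. The highest enrichment among merged regions called in all 4 samples was at chr11:18592001-18595400, 425285 bp from the start of Meis1, a homeobox gene, with folds of 3.8, 5.96, 5.95 and 5.98 from 137, 36, 73 and 101 ChIP reads. It was followed by chr11:72139401-72144800 near Pitpnm3 and chr11:98672801-98677800 at Gsdma.

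Of the 19 windows covered to over 20% (mean of 4 samples), 9 had at most 5 coding starts and 10 had more. The window from 56 to 57 Mb, with Nmur2, a neuropeptide receptor, as the only coding start, was covered to 48.2%, 20.5%, 54.9% and 54.4%. The window from 7 to 8 Mb, with Igfbp1 and Igfbp3, which bind insulin-like growth factors, and Adcy1, was covered to 40.0%, 15.8%, 48.8% and 45.3%. In both these windows, the 2 mature samples were above both pre-adipocyte samples.

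Mature adipocytes gained coverage most clearly beyond the 3′ end of Ebf1. The window from 45 to 46 Mb, which holds the end of Ebf1 and the genes Clint1, Lsm11, Thg1l and Sox30, was covered to 23.7% and 11.2% in pre-adipocytes and to 58.9% and 55.4% in mature adipocytes (17.5% ± 8.80 and 57.2% ± 2.52, SD, n = 2). The conditions did not overlap, and the gap between them was larger than the spread in either. Among 2561 windows of the genome its difference ranked second, and first after each sample was divided by its genome-wide covered share, which gave 2.18 and 2.08 in pre-adipocytes and 5.15 and 5.0 in mature adipocytes. Since this window was picked for its difference, no test is given.

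The gain was largest in the middle of the desert between Ebf1 and its neighbour Clint1, an adaptor of vesicle transport. Between Ebf1 and Clint1 (chr11:45008092-45852050, no coding start) regions covered 27.5% and 12.8% in pre-adipocytes and 66.8% and 63.6% in mature adipocytes. From 400 to 500 kb after the Ebf1 start, all samples but the shallow one were alike, at 81.3%, 38.0%, 77.3% and 80.6%. From 800 to 900 kb after it, the values were 0, 0, 77.3% and 70.1%. Over the stretch from 700 to 1000 kb after the start (chr11:45317317-45617316), pre-adipocytes had 0 and 2 regions, while mature adipocytes had 32 and 38, with 8171 and 7367 ChIP reads and a fold enrichment of 2.54 and 2.56 against 1.94 and 1.97 over all regions of the chromosome. Control reads in those mature regions were fewer, 13.0 and 13.1 per kb. Replicate 1 of pre-adipocytes, with no region there, had a library of like size (1.2 relative to the control, against 1.23 and 1.21). The Ebf1 body was nearly bare, with 1.48%, 0, 0.819% and 2.61% covered.

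**Figure D4:**
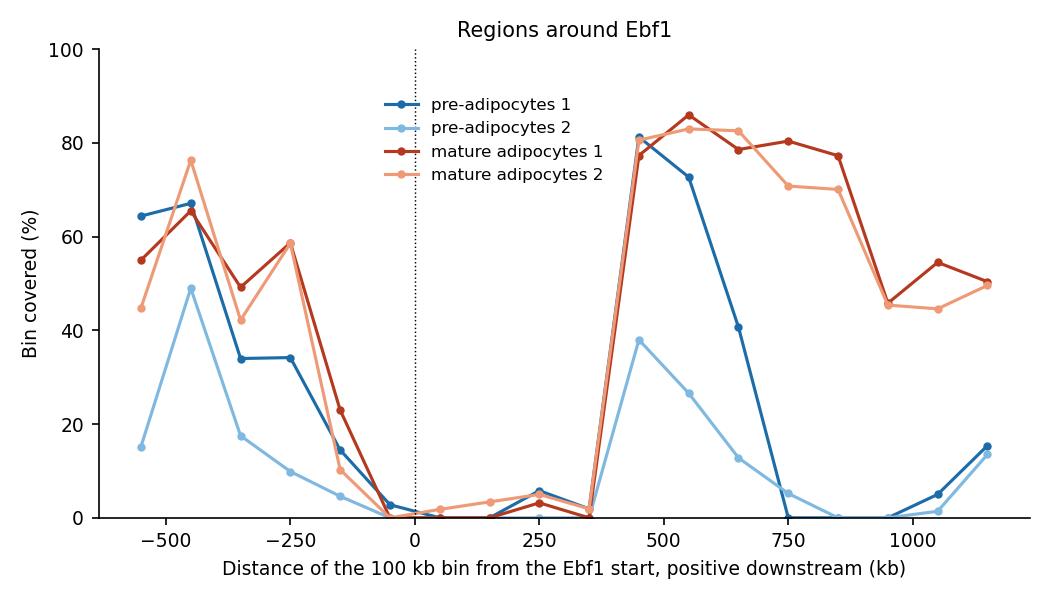
Covered share (%) of 100 kb bins by their distance from the Ebf1 start (kb, positive downstream, dotted line at the start), 1 line per sample. In the bin from 800 to 900 kb both mature samples were over 70% and both pre-adipocyte samples at 0, and from 0 to 400 kb every sample was at most 5.80%.

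Over the whole chromosome, both mature samples were above both pre-adipocyte samples in 51 of 118 windows (43.2%), against 35.1% of windows of the genome. Without replicate 1 of pre-adipocytes the share was 87.3%. That run set the mature samples against the shallow replicate 2 alone, and its share over the genome was not counted. With all 4 samples, both pre-adipocyte samples were above both mature samples in 2 windows (1.69%, against 5.51%), at low coverage. These were 48 to 49 Mb, with Rack1, Trim41, Trim7 and Irgm1, at 2.58%, 1.92%, 0.96% and 0.78%, and 26 to 27 Mb, with Fancl and Vrk2, at 0.60%, 0.60%, 0.24% and 0. Replicate 2 of pre-adipocytes was the lowest sample in 103 of 118 windows, and in 1578 of 2561 over the genome. Divided by the genome-wide covered share of each sample, mature samples were above in 41 windows (34.7%, against 26.0% in the genome) and pre-adipocyte samples in 23 (19.5%, against 22.1%).

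On that scale the windows that were higher in pre-adipocytes were led by the Sox9 window, at 7.10 and 8.57 times the genome-wide share in pre-adipocytes and 6.31 and 6.38 times in mature adipocytes. Unscaled, the mature mean was the higher one there (71.4% against 61.8%). The window from 92 to 93 Mb, without a coding start, followed with 2.02 and 1.59 against 0.759 and 0.879. Unscaled, that window was covered to 22%, 8.60%, 8.68% and 9.74%, so the conditions separated only after scaling. The window from 55 to 56 Mb, with the amino acid transporters Slc36a1 to Slc36a3 and the atypical cadherin Fat2, was at 3.74 and 3.04 against 2.70 and 2.57, while its unscaled means were 28.6% and 29.7%. In the other direction, the window from 8 to 9 Mb with Tns3, a focal adhesion protein, came after the Ebf1 flank, at 2.81 and 2.85 against 3.92 and 3.97.

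Merged over samples, chromosome 11 had 4175 regions, of which 897 were called in all 4 samples (21.5%, against 20.4% in the genome). Both mature samples and neither pre-adipocyte sample had 584 (14.0%, against 12.9%), and 31 had the opposite pattern (0.743%, against 1.62%). Of the 5 longest regions of mature adipocytes only, 3 lay in the Ebf1 desert, the longest at chr11:45488601-45508000 with 693 and 652 ChIP reads and folds of 2.66 and 2.88. Another, at chr11:67223201-67241600, reached from Myh1 into Myh4, both myosin heavy chains of fast muscle fibres. The longest region of pre-adipocytes only was 10800 bp long, at chr11:32436001-32446800, 13970 bp from the start of Ubtd2. Others lay at chr11:92740601-92751200 in the desert before Car10 and at chr11:110024601-110035000 in Abca8a, a lipid transporter of the ABC family. A region that was not called may still hold reads below the caller's threshold.

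Where all 4 samples had a region, the density of reads per called base differed little. Only bases past the caller's threshold were counted and called length was allowed for, so differences in extent were outside this comparison. None of the 897 regions passed an adjusted p of 0.05 in edgeR's quasi-likelihood test with Benjamini-Hochberg adjustment over 12857 regions of the genome, of which 11 passed (0.0856%). DESeq2 also called none on chromosome 11. That none passed did not hold in every edgeR run with 1 sample left out. In those runs the median log2 fold change on chromosome 11 was between -0.0148 and 0.00109. At an unadjusted p under 0.05 and with all 4 samples, edgeR counted 76 (8.47%, 32 of them higher in mature adipocytes). Genome-wide 9.15% of regions did so, and DESeq2 counted 5 on chromosome 11. The log2 fold change of mature over pre-adipocytes was within 0.5 of 0 in 894 regions, with a median SE of 0.13. The smallest adjusted p was 0.215 in edgeR, at chr11:6648001-6657400, with a log2 fold change of 0.45 ± 0.14 (SE). Its scaled reads per kb were 25.7, 36.4, 39.7 and 42, so both mature samples were above both pre-adipocyte samples. Next came chr11:116092001-116104000 with 0.33 ± 0.10 (SE) and chr11:7273401-7304800 with 0.23 ± 0.08 (SE). In the other direction a region over Cdr2l, at chr11:115368401-115382400, came first with -0.38 ± 0.12 (SE), and one over Krt36, Krt13 and Krt15, at chr11:100104401-100132000, followed with -0.25 ± 0.09 (SE). A region over Rph3al, at chr11:75911601-75923800, was the third with -0.50 ± 0.17 (SE). That value is a density per called base, since the test allows for called length. Called lengths there were 2200, 1400, 8600 and 11400 bp and ChIP reads 95, 34, 313 and 362, so both were larger in mature adipocytes while the reads per kb were lower. Regions missing in any sample, such as those of mature adipocytes in the Ebf1 desert, were outside this test.

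Of the 1639 coding genes of chromosome 11, 641 overlapped a region in at least 1 sample (39.1%, against 30.1% of all coding genes). In both pre-adipocyte samples it was 212 (12.9%, against 11.4%), in both mature samples 360 (22%, against 17.2%) and in all 4 samples 189 (11.5%, against 9.99%). The covered share of the gene body was higher in both mature samples than in both pre-adipocyte samples for 172 genes (10.5%, against 8.27%), and lower for 22 (1.34%, against 1.53%). The gene lists that follow were read against these shares, and none was tested.

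Most type I keratin genes overlapped a region in some sample. Of 27 type I keratins, the acidic keratins of epithelia and hair, 24 overlapped a region (88.9%, against 39.1% of the chromosome's genes). In both pre-adipocyte samples 8 did (29.6%, against 12.9%), and in both mature samples 17 (63.0%, against 22%). Krt33a, a hair keratin, was covered to 91.8%, 15.9%, 80.1% and 67.8%, and Krt13, of mucosal epithelia, to 81.1%, 47.2%, 76.4% and 43.4%. Krt14, of basal epidermis, was at 82.9%, 51.0%, 0 and 19.1%. It was among 3 keratins with both pre-adipocyte samples above both mature samples (11.1%, against 1.34% of the chromosome's genes). The other way there were 7 (25.9%, against 10.5%). Krt10, Krt16 and Krt42 had no region. Of 23 keratin-associated genes, 15 overlapped a region (65.2%, against 39.1% of the chromosome's genes). In both pre-adipocyte samples 5 did (21.7%, against 12.9%), and in both mature samples 4 (17.4%, against 22%). Krtap3-1 was wholly covered in every sample, and Krtap1-5 to 100%, 100%, 100% and 20.7%.

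Most chemokine, CD300 and Schlafen genes also overlapped a region. Of 11 CC chemokines, which attract white blood cells, 10 overlapped a region (90.9%, against 39.1% of the chromosome's genes). In both pre-adipocyte samples 5 did (45.5%, against 12.9%), and in both mature samples 6 (54.5%, against 22%). Ccl9 was covered to 100%, 85.4%, 100% and 100%, and Ccl11, which attracts eosinophils, to 84.4%, 73.2%, 100% and 76.6%. Ccl2, which attracts monocytes, was covered to 100% in 3 samples and to 0 in replicate 2 of pre-adipocytes, and Ccl5 had no region. Of 12 CD300 receptors of myeloid cells, 10 overlapped a region (83.3%), 4 in both pre-adipocyte (33.3%) and 9 in both mature samples (75%). In 5 both mature samples were above both pre-adipocyte samples (41.7%, against 10.5% of the chromosome's genes). Cd300ld showed the widest gap of these, with 17.3%, 0, 100% and 82.7%. Of 8 Schlafen genes, which are expressed in lymphoid cells among others, 7 overlapped a region (87.5%), led by Slfn14 with 71.7%, 57.0%, 73.1% and 89.7%.

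The 6 skeletal myosin heavy chains, the motor proteins of muscle fibres, lie side by side. All overlapped a region in both mature samples (100%, against 22% of the chromosome's genes), and 2 in both pre-adipocyte samples (33.3%, against 12.9%). In 5 of them both mature samples were above both pre-adipocyte samples (83.3%, against 10.5%). Myh1 was covered to 27.7%, 0, 55.1% and 52.7%, Myh13 to 49.2%, 12.8%, 54.0% and 56.4%, and Myh4 to 0, 0, 30.4% and 15.9%. The neighbours share regions, so these genes are not independent of each other. The 5 ABC transporters of subfamily A overlapped a region in both mature samples (100%), and 4 of them in both pre-adipocyte samples (80%). Abca8a was covered to 65.9%, 24.7%, 33.5% and 21% and Abca6 to 17.1%, 13.0%, 40.3% and 42.1%.

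Coverage varied among the other gene clusters, read against the 39.1% of the chromosome's genes that overlapped a region. In both pre-adipocyte samples that share was 12.9%, and in both mature samples 22%. Of 82 olfactory receptors, 15 overlapped a region (18.3%), 1 in both pre-adipocyte (1.22%) and 6 in both mature samples (7.32%). Olfr223 led with 83.3%, 0, 75% and 79.1%. Of 8 genes at the type 2 cytokine locus, Il3, Il5 and Csf2 overlapped a region in some sample (37.5%), while Il4, Il13, Rad50, Kif3a and Irf1 did not. Of 5 alpha-globin genes, 3 overlapped a region in some sample (60%) and Hba-a1 and Hba-a2 in none. Of 10 Hoxb genes, which pattern the body axis, 6 overlapped a region in some sample (60%). In both pre-adipocyte samples 1 did (10%), and in both mature samples 3 (30%). Hoxb9 was covered to 100%, 23.3%, 42.7% and 62.2%, Hoxb6 to 59.4%, 0, 77.0% and 46.2%, and Hoxb2, Hoxb3, Hoxb4 and Hoxb5 had no region. Hoxb1, at one end of the cluster, was at 0, 0, 50.1% and 42.2%. It was the only gene of the list with both mature samples above both pre-adipocyte samples (10%, against 10.5%). Hoxb13, at the other end, was at 78.1%, 0, 33.4% and 0, and Hoxb7 and Hoxb8 each had a region in a single mature sample. Of 4 Wnt genes, which encode secreted signals, 3 overlapped a region (75%), all of them in both mature samples. Wnt3a was covered most, to 20.1%, 15.9%, 28.6% and 20.1%, and Wnt9a had no region.

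**Figure D5:**
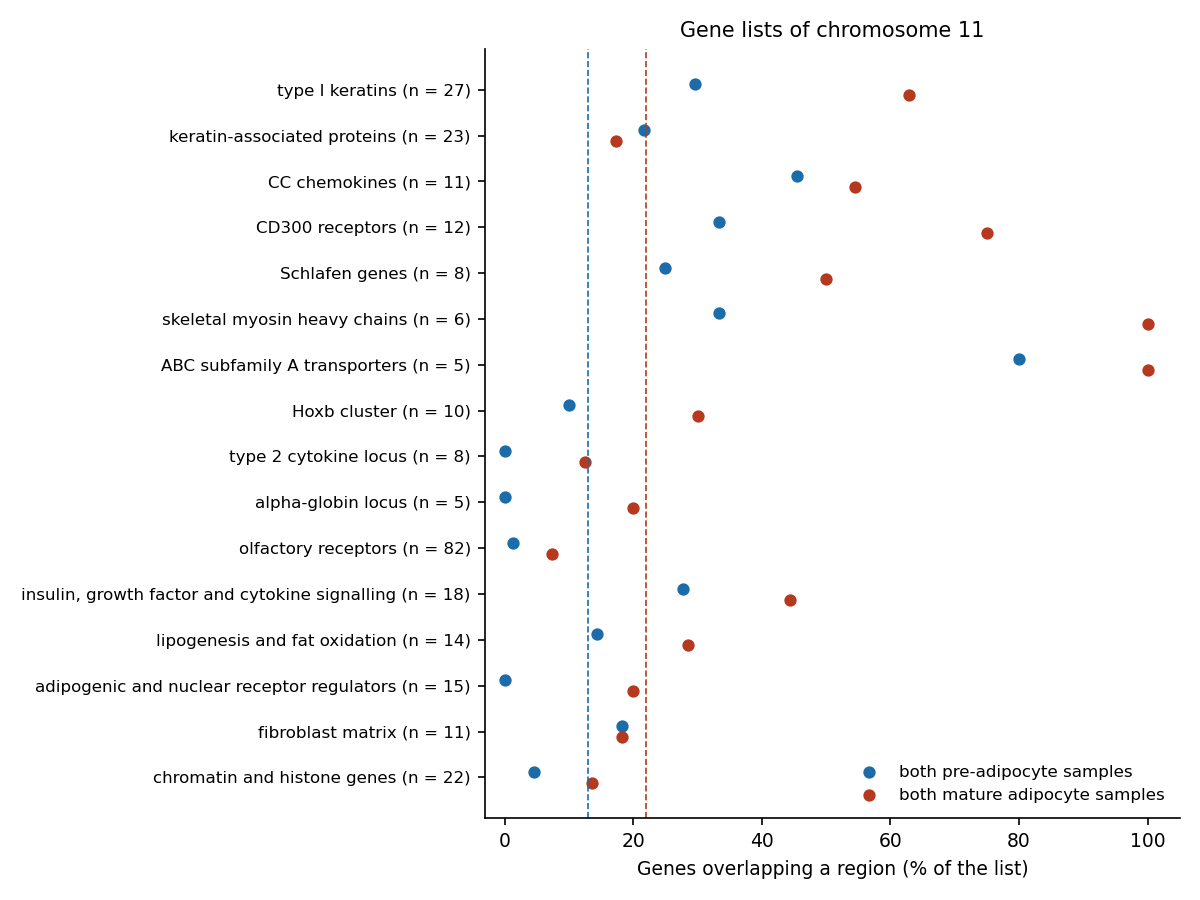
Share of each gene list (%) overlapping a region in both pre-adipocyte samples (blue) and in both mature adipocyte samples (red), with dashed lines at the shares for all coding genes of chromosome 11 (12.9% and 22%). Both points lay to the right of both lines for myosin, ABC transporter, CD300, type I keratin, chemokine and Schlafen genes. The same held for genes of insulin, growth factor and cytokine signalling.

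Genes of fat metabolism overlapped a region about as often as the genes of chromosome 11 at large. Of 14 such genes, 6 overlapped a region in some sample (42.9%, against 39.1% of the chromosome's genes). In both pre-adipocyte samples 2 did (14.3%, against 12.9%), and in both mature samples 4 (28.6%, against 22%). Fasn, Acly, which makes cytosolic acetyl-CoA, Srebf1, a regulator of lipid synthesis, Slc2a4, the insulin-responsive glucose transporter, Acadvl, Aoc3 and Pctp were among those with no region. Those with coverage included genes best known from the liver. Slc13a5, a citrate transporter, was covered to 85.6%, 18.2%, 42.1% and 48.3%, and G6pc, glucose 6-phosphatase, to 68.7%, 0, 60.3% and 53.6%. Acaca, acetyl-CoA carboxylase, was covered to at most 2.43%.

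The study's ChIP-Seq text takes up 2 genes on this chromosome, Fasn and Slc2a4. It reports enriched regions in both, inconsistent between its duplicates and without a significant difference between the conditions. Its FDR limit was less strict than that of the regions used here, which was 0.001. Here the nearest regions to both genes lay outside their bodies, and the part of the FDR limit in this was not tested. For Fasn the distances were 2845, 54045, 39045 and 3245 bp. For Slc2a4 the distances were 11338, 612, 3612 and 12 bp. Neither order separated the conditions.

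Regulators of fat cell formation and nuclear receptors were the list with the least coverage among those of adipocyte genes. Of 15, only Rara, a retinoic acid receptor, Ebf1 and Stat3 overlapped a region (20%, against 39.1% of the chromosome's genes). None did so in both pre-adipocyte samples (against 12.9%). All 3 did so in both mature samples (20%, against 22%), close to the share of the chromosome. Rara was at 0, 1.24%, 5.52% and 9.76%. Ncor1, Med1, Nr1d1, Thra, Stat5a, Stat5b and 6 others had no region. The 9 genes with symbols in Rpl or Rps included 2 with a region (22.2%, against 39.1%). That list also caught the kinase gene Rps6kb1 and the pseudogene Rpl9-ps1. Rpl9-ps1 was wholly covered in every sample, and as a near copy of Rpl9 its values are uncertain.

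Genes of insulin, growth factor and cytokine signalling overlapped a region more often than the chromosome's genes at large. Of 18, 11 overlapped a region (61.1%, against 39.1%). In both pre-adipocyte samples 5 did (27.8%, against 12.9%), and in both mature samples 8 (44.4%, against 22%). Egfr, the receptor for epidermal growth factor, was covered to 82.2%, 23.5%, 48.9% and 54.4%, and Grb10, an imprinted adaptor that restrains insulin signalling, to 49.6%, 36.8%, 43.8% and 39.9%. Igfbp1 was at 0, 0, 57.6% and 57.6%, and Igfbp3 at 0, 0, 20.4% and 29.6%. Both were covered in mature adipocytes only. They are neighbours in a window named above for its higher coverage in mature adipocytes, so they are not independent examples. Igfbp4, another binding protein gene of the list, was covered in every sample, to 71.1%, 24.3%, 44.1% and 10.6%. Both mature samples were above both pre-adipocyte samples in 4 genes of the list (22.2%, against 10.5%). The reverse held in 0 (against 1.34%). Grb2, Rptor and Map2k4 had no region.

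In the fibroblast matrix list of 11 genes, 5 overlapped a region (45.5%, against 39.1% of the chromosome's genes). Col23a1, a transmembrane collagen, was covered to 31.6%, 19.9%, 35.8% and 34.1%, whereas Col1a1, a main chain of collagen I, and Timp2, a protease inhibitor, had none. Of 22 chromatin and histone genes 6 overlapped a region (27.3%). Ikzf3, a lymphoid transcription factor, stood apart from the others with 40.9%, 12.6%, 61.1% and 69.6%. Suz12, Cbx2, Cbx8 and Kdm6b, which write, bind or erase a repressive histone mark, had none. Of 21 zinc finger genes 6 overlapped a region (28.6%), and of 34 solute carriers 14 (41.2%). Gene length differs between these lists, with a median of 973 bp for keratin-associated genes and 68348 bp for ABC transporters, and longer genes meet a region more easily.

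Gene starts were covered less often than gene bodies. The start of 268 of the 1639 genes lay in a region of at least 1 sample (16.4%, against 11.3% of all coding genes), of 20 in both pre-adipocyte samples (1.22%, against 1.29%), of 54 in both mature samples (3.29%, against 2.68%) and of 11 in all 4 samples (0.671%, against 0.616%). Among the 11 were Ehbp1, Coil, Ttll6, Dusp3, Krtap3-1 and Krtap1-5.

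Promoters inside regions had fewer CG pairs than those outside. RefSeq promoters of 300 bases (250 before the start and 50 after it) were available for 1250 coding genes of chromosome 11. In all 4 samples 5 lay wholly inside a region (0.40%, against 0.456% of promoters of all chromosomes), those of Krtap3-1, Krtap1-5, Cfap97d1, Efcab3 and Gm11639, the last 3 at RefSeq starts away from the GENCODE start of the gene. Their median GC content was 41.0% and their median number of CG pairs 4. In the 157 promoters inside a region in 1 to 3 samples (12.6%, against 9.29%) the medians were 50.7% and 6, and in the 1088 inside none 59.3% and 19. The letters TATAAA, searched on both strands, stood in 4 of the 5, in 31.2% of the 157 and in 10.2% of the 1088. Over all chromosomes the same classes had 25.3% (of 75 promoters), 17.9% (of 1527) and 12.3% (of 14831), a smaller difference. Among all promoters the shares were 13.1% of the 1250 and 12.9% over all chromosomes. The 5 are few, and Krtap3-1 and Krtap1-5 are neighbours. A match of these letters is a description and not a binding site.

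Of 83 microRNA hairpins on chromosome 11, 8 lay wholly inside a region in some sample (9.64%, against 9.95% of 1005 hairpins of all chromosomes). None did so in both pre-adipocyte samples, against 1.49%, and 4 did in both mature samples (4.82%, against 2.79%). These 4 were Mir216a, Mir216b, Mir216c and Mir217, known from the pancreas, which lie side by side upstream of the long region over Efemp1. Mir216c is read from the opposite strand of the same stretch as Mir216b. Replicate 1 of mature adipocytes had 3 regions over the cluster with folds of 2.04, 1.85 and 1.78, and replicate 2 had 3 with folds of 2.38, 1.87 and 1.58. Replicate 1 of pre-adipocytes had no region there. Replicate 2 had one at chr11:28746201-28750200 with 61 ChIP reads and a fold of 2.06, which began inside the hairpins of Mir216b and Mir216c and so did not hold them whole.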

How the data were processed

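The authors aligned reads to mm10 with Bowtie 1.1.2, removed duplicates with Picard and called broad regions per sample with SICER 1.1. The deposited tables give, for each region, the raw count of ChIP reads and of control reads, a p-value with its FDR (at most 0.001 in these files), and the fold enrichment, a ratio scaled by library size. Reads and library totals were not analysed here. Library size relative to the control was recovered from the fold enrichment.

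Region ends fall on a 200 bp grid, and coordinates are given 1-based. Covered share is the percentage of bases inside regions, taken over the span of GENCODE M21 genes, over 1 Mb windows (the first 3 Mb and the last window left out) or over gene bodies. An overlap of 1 bp counted. Regions of the 4 samples were merged, and ChIP counts of regions called in all 4 were tested with edgeR 4.0.16, with TMM factors, an offset for called length and adjustment over the whole genome. On simulated counts it recovered 75 of 100 regions changed by a log2 fold change of 0.5 and 100 of 100 changed by 1. There 8 unchanged regions were called. The simulation kept the called lengths fixed and gave every region the same spread. It therefore does not measure recovery in these data, where a change can alter the called length. Single values were compared by exact permutation tests. Same-numbered replicates did not deviate together (r = 0.008 over regions), so replicate numbers were not used as pairs. Lists and members were chosen with earlier results of these data known. The text names the 5 most covered windows, up to 5 with the largest difference in each direction, the 5 longest merged regions, the 3 with the highest fold, the 3 with the smallest p in each direction, and up to 3 members of each list with the highest coverage and 3 without any, and lists are counted whole. Further list members, the 4 promoters shown, the Ebf1 and Sox9 bins and the windows with most genes were named after their values were seen. The scripts ran in Python 3.11.15 (numpy 2.4.6 and pandas 2.3.3) and R 4.3.3 with limma 3.58.1 and DESeq2 1.42.0, and the permutation tests came from scipy 1.17.1. Some genes are not reported here. Alternatives are in the closing section.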

Additional observations from a re-analysis of the deposited data

How the results depend on the processing

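The covered share of chromosome 11 stayed higher in mature adipocytes under every alternative run, but none could pass a threshold with 2 samples against 2. The difference was 4.51 percentage points at an FDR of at most 1e-05, 2.95 at a fold of at least 2, 5.26 with regions found in the other replicate, and 0.557 to 8.42 when 1 sample was left out. The 2 measures chosen after seeing the data gave 0.0752 for the ratio to the genome and 0.348 points for the share of all covered bases (exact p = 0.667 for both). The percentage of windows with both mature samples above ran from 43.2% to 87.3% when 1 sample was left out, and from 34.7% to 57.6% under the others. The highest came without replicate 1 of pre-adipocytes, where only the shallow replicate 2 was left to compare with. Shares over the genome were not counted for the runs with 1 sample left out.

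No region of chromosome 11 passed in the main test, with the replicate number as a block, with relative log expression factors, with library sizes from the fold enrichment, with at least 50 reads per sample, over regions called in at least 1 sample, or in DESeq2. With the replicate block 27 regions passed genome-wide, against 11. Over regions called in at least 1 sample, no length offset was used, and a sample without a call entered no reads. The median log2 fold change there was 1.19 on chromosome 11 and 1.02 genome-wide. At an unadjusted p under 0.05 in edgeR, 414 of 4175 regions passed, against 6726 of 62927 genome-wide. Of the 414, 374 were higher in mature adipocytes. With regions of replicates overlapping by 50%, 9 of 233 passed, and with 1 sample left out between 0 and 10, where the lone sample was assumed to vary like the others. The cause was not tested.

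Spearman's correlation of covered share with gene density was 0.291, and 0.340 at a fold of at least 2, 0.303 in windows of 500 kb, 0.306 with all annotated genes and 0.283 to 0.289 when 1 sample was left out, but 0.0594 with the share of the window inside gene bodies. Replicate 2 of pre-adipocytes had the smallest library, and what fell below the caller's threshold there is not known to be absent.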
